A study of Homo sapiens with 6 samples.

Results

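The ATP-binding cassette (ABC) superfamily was described in 6 RNA-seq libraries of a human liver cancer line, from the rows whose symbol is ABC, a subfamily letter from A to G and a number. This rule found 43 of 24432 gene symbols, with 12 members of subfamily A, 8 of B, 11 of C, 4 of D, 1 of E, 3 of F and 4 of G. The cells were labelled PLC/PRF/5, an established hepatocellular carcinoma line. Of the 6 libraries, 3 came from sensitive cells with wild-type genotype and control treatment, and 3 from cells labelled lenvatinib resistant in both genotype and treatment. Lenvatinib is a drug that inhibits several receptor tyrosine kinases. Resistant cells were selected in doses that started at 20 µmol/L, rose by 0.5 mmol/L at each passage and ended at 40 mmol/L, so the labels mix units. Medium with 10% serum was common to both groups. No source used here says whether the resistant line is a clone or a pool, or whether replicates were separate cultures, so p-values measure the spread between these libraries, which may be technical. Drug exposure and resistance came together in every resistant library and cannot be told apart.

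ABC proteins bind and hydrolyse ATP on conserved cassettes, and most use it to move lipids, conjugates, peptides or drugs across a membrane. In hepatocytes they export bile acids, phospholipid, sterols and conjugated bilirubin into bile, send lipid to lipoproteins, and carry fatty acyl groups into peroxisomes. Plasma membrane members that accept many drugs are known from multidrug resistance of tumours. Subfamilies E and F have cassettes but no membrane domain and act at the ribosome. Question and comparison were the same here: which members differed between resistant and sensitive cells, taken by subfamily.

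Values are FPKM, which scale fragment counts by transcript length and library size, so levels of different genes are on a scale that accounts for length. The low values implied a depth of 39700000 reads or fragments. By an estimate on low-level genes the 6 libraries lay within 3.46% of each other. It kept only genes with values close to those of sensitive replicate 1, so it could not have shown a large difference in depth. Sensitive replicate 3 stood apart from its group, with Pearson's r of 0.9515 and 0.9643 to sensitive replicates 1 and 2, which correlated at 0.9947 with each other. These r values run over genes, which are no independent replicates. Hepatocyte marker transcripts, 10 in number, summed to between 2892 and 2989 FPKM in sensitive libraries and to 11.7, 27.3 and 11.1 FPKM in resistant replicates 1, 2 and 3. All 8 tested hepatocyte markers were lower in resistant cells, but 5 of them met the testing filter (given below) in sensitive cells alone, so their direction was fixed by it. ALB was at 4.02, 3.61 and 2.01 FPKM in sensitive libraries and at 0.0222 FPKM in resistant replicate 2 and listed at 0 in the other resistant ones. The biliary keratin KRT7 went the other way, from 0.498 ± 0.408 to 106 ± 8.64 FPKM (mean ± SD, n = 3 per group here and below), while KRT19 was at no more than 0.148 FPKM in each library. The 9 biliary markers summed to between 82.8 and 94.1 FPKM in sensitive and between 155 and 172 FPKM in resistant libraries, with 2 of 4 tested higher and 1 lower. This rise came from KRT7, and without it the sum was lower in resistant libraries. SLC4A2, the highest of the 9 in sensitive cells, fell from 74.1 ± 6.98 to 39.5 ± 0.465 FPKM. SOX9 rose from 3.24 ± 1.29 to 11.4 ± 0.379 FPKM. Fibroblast and endothelial markers summed to at most 1.81 and 0.348 FPKM in any library, and the leukocyte marker PTPRC was listed at 0 in all 6. The 4 leukocyte-list genes summed to between 250 and 268 FPKM in sensitive and between 2.76 and 5.41 FPKM in resistant libraries, with both tested ones (LYZ and CD68) lower. Among resistant libraries LYZ reached 1 FPKM in replicate 2 alone (2.27 FPKM), so it needed sensitive libraries to pass the filter. Beside these marker counts, 35.2% of all tested genes were called as higher and 32.5% as lower. These marker shifts run with the same contrast as every result below, and their part in those results was not tested. In such bulk libraries, fewer cells of a type and less RNA per cell cannot be told apart.

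Resistant cells held less ABC transcript in sum. The 43 members added up to 468, 413 and 360 FPKM in sensitive replicates 1, 2 and 3 and to 163, 169 and 173 FPKM in resistant replicates 1, 2 and 3. All 3 resistant libraries lay below all 3 sensitive ones, and the mean sum was 2.46 times higher in sensitive cells. Over all genes the summed FPKM was 1.18 times higher in sensitive cells. The lower sum came mostly from a small set of highly expressed members. ABCD3 and ABCF1 alone made up 40.3% of the ABC sum of sensitive cells. In resistant cells the ribosome-associated ABCE1, ABCF1, ABCF2 and ABCF3 led the ranking and made up 45.4% of the sum, against 36.4% in sensitive cells.

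**Figure D1:**
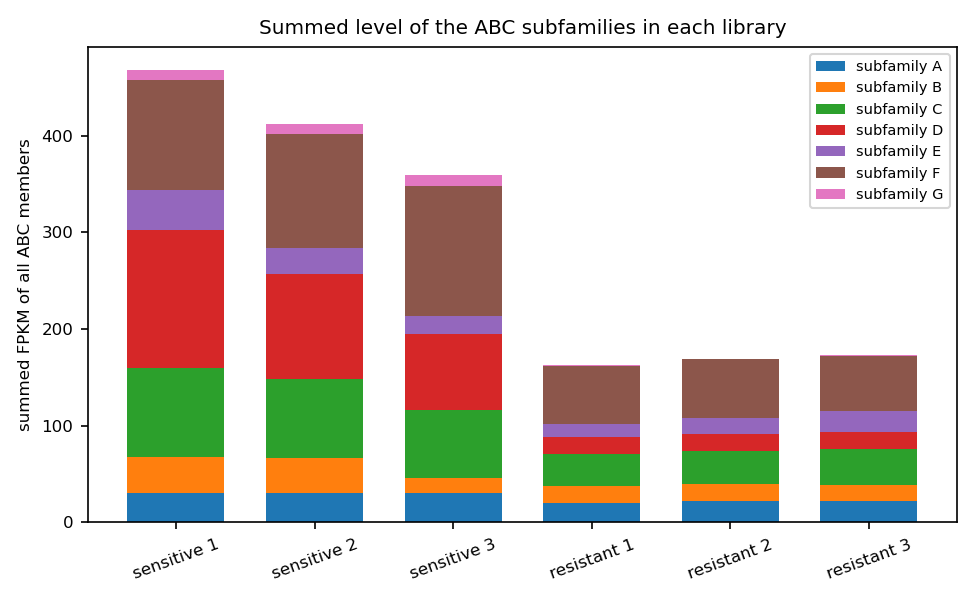
Summed FPKM of all ABC members (y axis, linear from 0) in each of the 6 libraries (x axis), stacked by subfamily. Subfamily D shrank from 79.1 to 143 FPKM in sensitive libraries to 16.8 to 18.2 FPKM in resistant ones, and subfamily F was the largest share of each resistant bar.

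A total of 23 members reached 1 FPKM in at least 3 libraries and were tested with limma on log2(FPKM + 1), in 1 fit over all 11694 genes that passed this filter. Of them 11 were lower and 5 higher in resistant cells, and 7 did not pass (adjusted p under 0.05 by Benjamini-Hochberg over all tested genes). The background of this comparison is wide. Of all tested genes 67.7% were called, 35.2% as higher and 32.5% as lower. The share of members called, 69.6%, is close to that background and is no result about the family. Members were called lower in 47.8% and higher in 21.7% of cases. The 2 groups had no overlap in 18 of the 23 members, against 74.4% of all tested genes. The members' median log2 fold change was -0.73, against 0.08 over all tested genes. ABCC6 and ABCG2 passed the filter through the sensitive libraries and ABCC3 through the resistant ones, which fixed their direction. Among resistant libraries ABCC2 reached 1 FPKM in replicate 2 alone (1.18 FPKM), so it too needed sensitive libraries to pass. Each fold change is given on that log2(FPKM + 1) scale, which understates the change of members at low levels.

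By letter, subfamily C had 4 members lower, 2 higher and 1 not past the test, and subfamily D had 2 lower and 1 higher. Subfamily F likewise had 2 lower and 1 higher. In subfamily A 2 were lower and 3 did not pass, in subfamily B 1 was higher and 2 did not pass, the lone tested member of G was lower, and ABCE1 did not pass. Summed levels were lower in resistant cells for each letter, by 21.3 times in G, 6.26 in D, 2.34 in C, 2.06 in F, 1.72 in B, 1.66 in E and 1.41 in A. These ratios rest largely on the top member in B, C, D and G and less so in F and A, while E has 1 member. Without the top member the log2 ratio went from -1.23 to -0.024 in C, -2.65 to -0.66 in D and -4.41 to -0.88 in G. It went from -1.05 to -0.60 in F and -0.78 to -0.21 in B. The sums of B and E overlapped between groups, because sensitive replicate 3 held 15.8 and 18.7 FPKM there, within or below the resistant range.

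**Figure D2:**
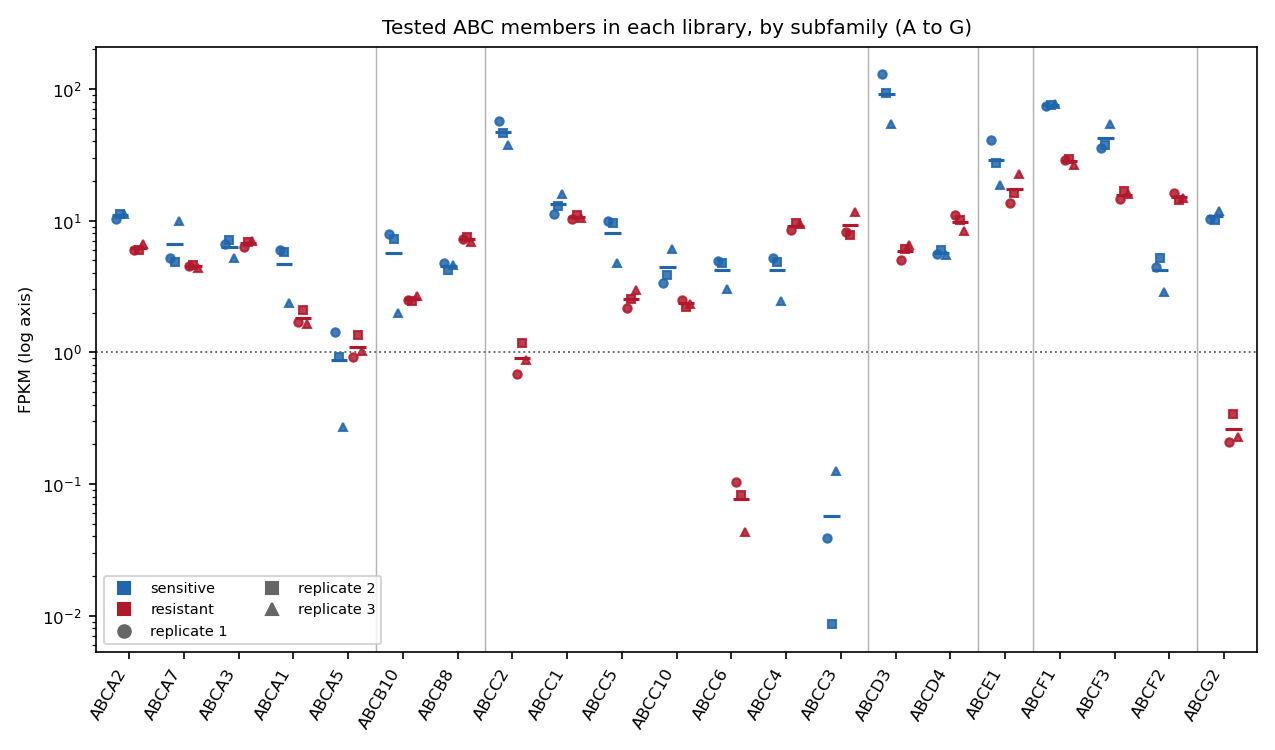
FPKM (y axis, log scale) of 21 of the 23 tested ABC members (x axis, grouped by subfamily) in each library, with marker shapes for replicates, horizontal bars for group means and a dotted line at 1 FPKM. ABCC2, ABCC6 and ABCG2 dropped below or close to 1 FPKM in all resistant libraries, while ABCC3 rose from at most 0.125 FPKM to between 7.77 and 11.7 FPKM.

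Promoters of 4 called members are shown, of which that of ABCC2 stands apart in base composition. They are the 2 largest falls (ABCC2 and ABCD3) and the 2 largest rises (ABCF2 and ABCC4) among the 10 called members that have a single listed start in the RefSeq promoter table. Each sequence is the 250 bases before that start, 5′ to 3′ on the gene's strand, from RefSeq (GRCh38.p14), with CpG dinucleotides in capitals. The positions are chr10:99782390-99782639 (plus strand) for ABCC2, chr1:94418139-94418388 (plus) for ABCD3, chr13:95301452-95301701 (minus) for ABCC4 and chr7:151227206-151227455 (minus) for ABCF2.
ABCC2: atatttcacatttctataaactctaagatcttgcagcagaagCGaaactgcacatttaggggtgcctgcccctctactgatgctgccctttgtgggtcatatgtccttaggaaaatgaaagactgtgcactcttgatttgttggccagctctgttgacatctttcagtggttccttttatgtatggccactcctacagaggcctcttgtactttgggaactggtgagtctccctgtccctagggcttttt
ABCD3: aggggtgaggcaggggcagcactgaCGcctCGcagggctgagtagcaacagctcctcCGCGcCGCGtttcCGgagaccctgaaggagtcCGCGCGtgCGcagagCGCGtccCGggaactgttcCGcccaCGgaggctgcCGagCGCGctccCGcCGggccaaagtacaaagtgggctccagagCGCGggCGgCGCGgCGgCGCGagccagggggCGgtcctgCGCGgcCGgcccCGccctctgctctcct
ABCC4: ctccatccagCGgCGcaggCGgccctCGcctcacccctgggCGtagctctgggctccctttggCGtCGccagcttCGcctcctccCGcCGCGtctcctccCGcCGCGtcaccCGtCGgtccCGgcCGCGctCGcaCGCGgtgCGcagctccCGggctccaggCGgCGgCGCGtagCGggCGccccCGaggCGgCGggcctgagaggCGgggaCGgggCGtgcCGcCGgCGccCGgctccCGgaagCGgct
ABCF2: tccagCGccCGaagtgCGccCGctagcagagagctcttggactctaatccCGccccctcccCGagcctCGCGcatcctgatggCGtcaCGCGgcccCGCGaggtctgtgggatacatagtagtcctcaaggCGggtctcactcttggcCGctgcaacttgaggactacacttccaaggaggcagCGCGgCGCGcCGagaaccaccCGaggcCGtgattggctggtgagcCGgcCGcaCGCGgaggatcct

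ABCC2 has 1 CpG in this window, ABCD3 34, ABCC4 42 and ABCF2 26. Across all 35116 windows of that length in the table the median was 11 CpG (quartiles 3 and 23). The GC content was 45.6% for ABCC2, 74.4% for ABCD3, 80.4% for ABCC4 and 66.4% for ABCF2. The 2 members that fell most thus had very unlike windows. Among the 10 called members with a single listed start, windows other than that of ABCC2 held between 13 and 42 CpG. On both strands, GGGCGG (a GC box) was in 8 of these 10 windows and in 42.6% of all windows, CCAAT in 2 of 10 and 32.0%, and TATAAA in 3 of 10 and 10.7%. AGGTCA, a nuclear receptor hexamer, was in the ABCF1 window alone among the 10 and in 12.1% of all windows. TGANTCA, an AP-1 type element, was in none of the 10 and in 6.57% of all windows. All windows include those of genes with several starts and of genes not tested here, so they are no like background for the 10. These letters describe the windows and nothing about binding.

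The most abundant transcript of a bile canalicular exporter fell. ABCC2, which exports conjugated bilirubin and glutathione conjugates across the canalicular membrane, had levels of 57.3, 46.4 and 37.3 FPKM in the sensitive libraries (replicates 1, 2 and 3, the order kept below) and 0.686, 1.18 and 0.869 FPKM in the resistant ones. Every resistant library lay far below every sensitive one, and ABCC2 went from the third to rank 21 of the 43 members. Its mean was 51.6 times higher in sensitive cells (log2 fold change -4.64, SE 0.187, limma adjusted p = 1.90e-06). The highest resistant value was in replicate 2, the resistant library with the highest hepatocyte marker sum. Of other members that fell, ABCG2 was also highest in resistant replicate 2, but ABCC6 in replicate 1 and ABCD3 in replicate 3. A link to the marker sum was not tested. ABCB4, which flips phosphatidylcholine into bile, and ABCG8, a sterol exporter, were near 0 in both groups, at no more than 0.0258 and 0.0223 FPKM. ABCB11 and ABCG5 were not analysed here.

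The multidrug pump ABCG2, known from resistance to topoisomerase inhibitors and a marker of side population cells, fell with it. It was at 10.3, 10.2 and 11.7 FPKM in sensitive and at 0.207, 0.343 and 0.228 FPKM in resistant replicates 1, 2 and 3. The sensitive libraries lay close together, and the resistant ones were all at 0.343 FPKM or less. The mean was 41.5 times higher in sensitive cells (log2 fold change -3.22, SE 0.113, limma adjusted p = 1.07e-06). ABCB1, which encodes P-glycoprotein, did not reach the filter and was singled out with its values known. It was at 0.981, 0.605 and 0.972 FPKM in sensitive and at 0.116, 0.0797 and 0.0708 FPKM in resistant libraries. The groups did not overlap, and in the fit with no filter ABCB1 was lower in resistant cells (log2 fold change -0.76, limma adjusted p = 0.00133). ABCB5, another pump of this kind, was at no more than 0.0134 FPKM in any library.

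Subfamily C split between pumps that fell and pumps that rose. ABCC3, a basolateral exporter of glucuronides and bile acids toward blood, had 0.0391, 0.00860 and 0.125 FPKM in the sensitive libraries against 8.19, 7.77 and 11.7 FPKM in the resistant ones. It had the largest rise of the tested members and moved from rank 30 to rank 7 in the family (log2 fold change 3.25, SE 0.162, limma adjusted p = 4.49e-06). ABCC4, which exports cyclic nucleotides and bile acids from the basolateral side, was at 5.23, 4.87 and 2.46 FPKM in sensitive and 8.49, 9.65 and 9.36 FPKM in resistant libraries. All resistant values lay above all sensitive ones (log2 fold change 1.02, SE 0.235, limma adjusted p = 0.00735).

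Among the members that fell, ABCC6, a liver protein through which hepatocytes release ATP and whose loss causes pseudoxanthoma elasticum, was at 4.90, 4.79 and 3.04 FPKM in sensitive and at 0.103, 0.0831 and 0.0435 FPKM in resistant libraries. That is a mean 55.3 times higher in sensitive cells (log2 fold change -2.26, SE 0.159, limma adjusted p = 2.22e-05). Near-identical pseudogene copies of ABCC6 exist, so how its reads were assigned is uncertain. ABCC5, an exporter of cyclic nucleotides, fell from 8.10 ± 2.93 to 2.55 ± 0.385 FPKM (log2 fold change -1.30, limma adjusted p = 0.00414), with no overlap between groups. ABCC10, a pump with broad drug specificity, fell from 4.42 ± 1.42 to 2.35 ± 0.143 FPKM (log2 fold change -0.67, limma adjusted p = 0.0182), and its call ended without resistant replicate 2 (adjusted p = 0.0664) or 3 (0.0613). An exon of ABCC10 overlaps DLK2 on the opposite strand by 79 bases, and the strand setting is not given.

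ABCC1, the founding multidrug resistance-associated protein, had the smallest log2 fold change of the 7 tested efflux pumps. It was at 11.3, 12.9 and 16.0 FPKM in sensitive and 10.3, 10.9 and 10.5 FPKM in resistant libraries. The resistant values were below all sensitive ones, but the difference did not pass (log2 fold change -0.30, SE 0.143, limma adjusted p = 0.102). It passed as lower without sensitive replicate 1 (-0.41, adjusted p = 0.0409). Summed over 11 members with a role as plasma membrane efflux pumps outside the canalicular list, sensitive libraries held between 45.3 and 46.9 FPKM and resistant ones between 32.1 and 37.2 FPKM. In sensitive cells ABCC1, ABCG2 and ABCC5 stood highest in this group, at 13.4, 10.8 and 8.10 FPKM. In resistant cells ABCC1, ABCC3 and ABCC4 did, at 10.6, 9.21 and 9.17 FPKM, levels that lie within each other's spread for ABCC3 and ABCC4.

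**Figure D3:**
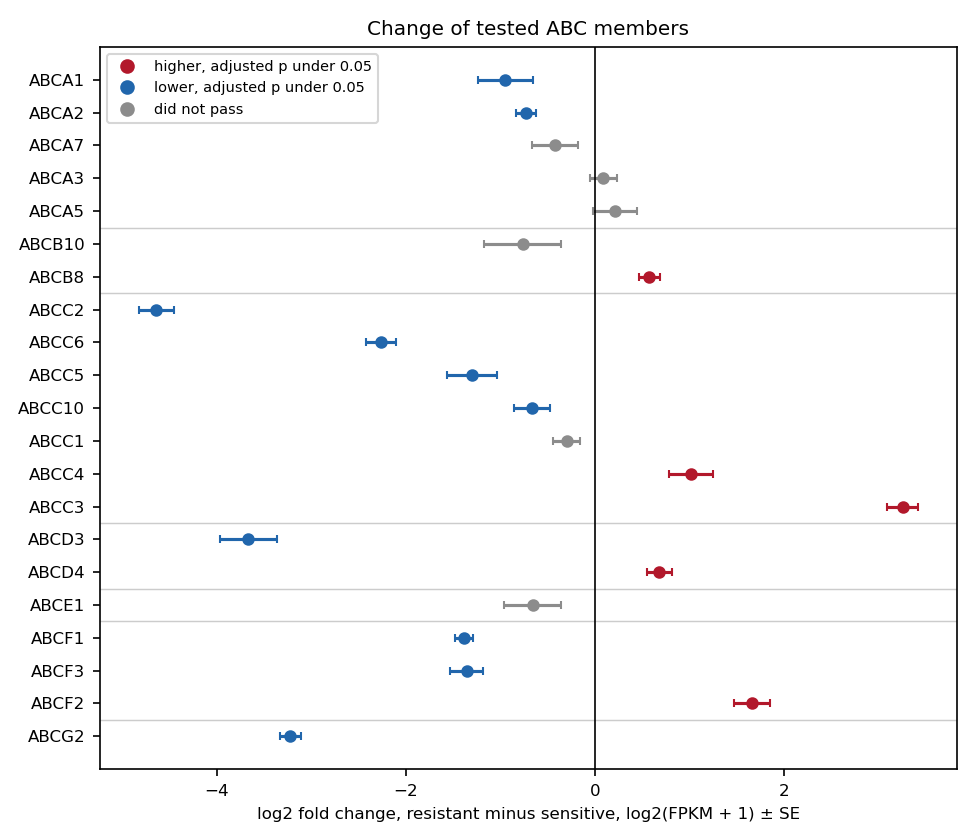
Log2 fold change of 21 of the 23 tested ABC members, resistant minus sensitive (x axis, log2(FPKM + 1) scale, points with limma standard errors), grouped by subfamily from A at the top to G at the bottom and coloured by call. Plotted members lower in resistant cells range from -4.64 for ABCC2 to -0.67 for ABCC10, and the 5 higher ones from 0.57 for ABCB8 to 3.25 for ABCC3.

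A peroxisomal member had the highest mean level of the family in sensitive cells and fell, though ABCF1 and ABCF3 were above it in sensitive replicate 3. ABCD3, an abundant protein of the peroxisome membrane that brings in branched-chain acyl groups and bile acid intermediates, was at 129, 92.4 and 53.6 FPKM in sensitive and 5.02, 6.10 and 6.53 FPKM in resistant libraries. The sensitive values spread widely, yet the lowest was far above all resistant ones (log2 fold change -3.67, SE 0.303, limma adjusted p = 4.85e-05). Sensitive replicate 3 was the lowest of its group.

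ABCD4 acts in lysosomes rather than peroxisomes, where it releases cobalamin to the cytosol. It rose, from 5.61, 5.97 and 5.50 FPKM in sensitive to 10.96, 10.0 and 8.37 FPKM in resistant libraries (log2 fold change 0.68, SE 0.132, limma adjusted p = 0.00323). ABCD2, a peroxisomal member, was at no more than 0.0313 FPKM in any library. The background over all tested genes was 32.5% lower and 35.2% higher, with a median log2 fold change of 0.08. Of 12 tested peroxisome and cobalamin genes that work beside the ABCD members, 5 were lower, 1 higher and 6 did not pass. Their median log2 fold change was -0.74. Among the genes called as lower were ACAA1 (log2 fold change -0.86), SCP2 (-0.84) and LMBRD1, the lysosomal partner of ABCD4 (-1.27). LMBRD1 thus moved opposite to ABCD4, at 8.69 ± 1.87 and 2.97 ± 0.360 FPKM.

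The ribosome-associated proteins had the 4 highest mean levels in resistant cells, where ABCF2 moved up from rank 20 in sensitive cells. ABCF1, which promotes translation initiation, was at 73.5, 75.04 and 76.8 FPKM in sensitive and 29.02, 29.5 and 26.2 FPKM in resistant libraries (log2 fold change -1.38, SE 0.0942, limma adjusted p = 1.90e-05). Its replicates lay close together in both groups, which did not overlap. ABCF3 was at 35.9, 37.2 and 54.4 FPKM in sensitive and 14.6, 16.6 and 15.8 FPKM in resistant libraries, again with all resistant values lower (log2 fold change -1.36, SE 0.174, limma adjusted p = 0.000435). ABCF2 moved the other way, from 4.46, 5.24 and 2.87 FPKM to 16.2, 14.3 and 14.7 FPKM (log2 fold change 1.66, SE 0.192, limma adjusted p = 0.000262). In sensitive cells ABCF2 lay far below ABCF3, and in resistant cells they overlapped, at 15.1 ± 0.990 and 15.7 ± 1.01 FPKM. In GENCODE release 29 the gene AC021097.2 shares up to 213 bases of exon with ABCF2 on the same strand.

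ABCE1, which splits ribosomes into subunits after termination, was at 40.7, 27.3 and 18.7 FPKM in sensitive and 13.5, 16.2 and 22.6 FPKM in resistant libraries. The groups overlapped and the difference did not pass (log2 fold change -0.66, SE 0.302, limma adjusted p = 0.0908). Without sensitive replicate 3 it passed as lower (-0.93, adjusted p = 0.00462), and also when libraries were scaled to their geometric mean (-0.72, adjusted p = 0.0393). Exons of ABCE1 and ANAPC10 overlap on opposite strands by up to 184 bases. Of 11 tested genes of ribosome rescue and the GCN pathway, 5 were lower, 2 higher and 4 did not pass. Their median log2 fold change was -0.15. The share called is close to the 67.7% of all tested genes, which had a median of 0.08. EIF2S3 and the rescue factor HBS1L fell (log2 fold changes -1.35 and -0.78), while EIF6 and the release factor ETF1 rose by 1.09 and 0.70.

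For ABCB10, a mitochondrial member of subfamily B that acts in heme synthesis, the call depended on sensitive replicate 3. It was at 7.87, 7.27 and 1.99 FPKM against 2.50, 2.47 and 2.67 FPKM, with sensitive replicate 3 below every resistant library (log2 fold change -0.77, limma adjusted p = 0.132). It passed as lower without that library (-1.27, adjusted p = 4.46e-06) and under quantile normalization (-0.89, adjusted p = 0.0452).

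ABCB8, an inner membrane transporter linked to iron export and a potassium channel, rose from 4.80, 4.25 and 4.56 FPKM to 7.23, 7.57 and 6.90 FPKM (log2 fold change 0.57, SE 0.112, limma adjusted p = 0.00334). Here sensitive replicate 3 lay between its 2 fellows, and the groups did not overlap. ABCB6, a porphyrin transporter, did not reach the filter and was at 0.618, 0.410 and 1.07 FPKM in sensitive and 0.960, 0.716 and 0.791 FPKM in resistant libraries. ABCB9, a lysosomal peptide transporter just under the filter, was at 0.966, 1.23 and 1.10 FPKM against 0.641, 0.354 and 0.523 FPKM, and its exons overlap OGFOD2 and ARL6IP4 on the opposite strand. Of 17 tested heme and iron-sulfur genes, 10 were lower, 4 higher and 3 did not pass, with a median log2 fold change of -0.63. Their background is the 32.5% lower and 35.2% higher of all tested genes, with a median of 0.08. The desulfurase NFS1 and GLRX5, which hands on iron-sulfur clusters, fell (log2 fold changes -1.49 and -1.11). SLC25A37, the mitochondrial iron carrier known to associate with ABCB10, rose by 2.37.

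**Figure D4:**
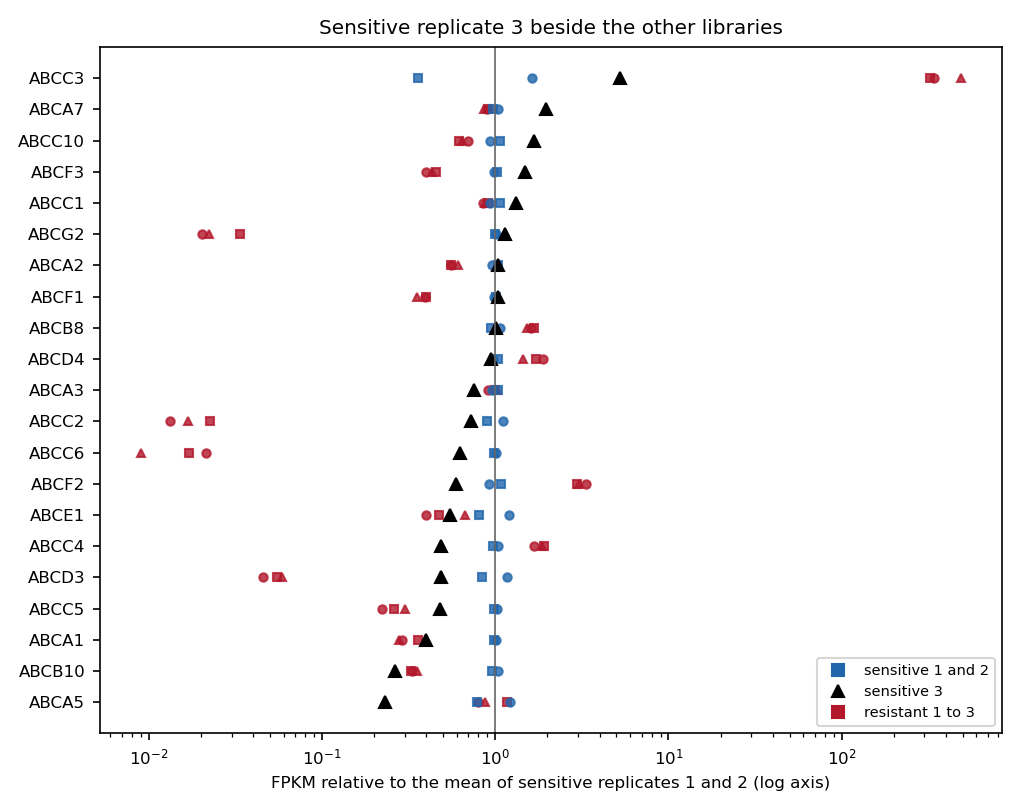
FPKM of 21 of the 23 tested ABC members (y axis, ordered by sensitive replicate 3) relative to the mean of sensitive replicates 1 and 2 (x axis, log scale), with sensitive replicates 1 and 2 in blue, sensitive replicate 3 in black and the resistant libraries in red. For ABCB10 and ABCE1 the black symbol lies within or below the red ones, while for ABCC2, ABCC6, ABCG2 and ABCD3 it lies far above them.

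Sensitive replicate 3 differed by more than 1.5-fold from both of its fellows in 13 of 23 tested members, below them in 9 and above them in 4. Over all tested genes this share was 36.1%, against 56.5% of the members. ABCA5 and ABCB10 were at 0.231 and 0.263 of the mean of sensitive replicates 1 and 2 there, and ABCC4, ABCC5 and ABCD3 at 0.487, 0.483 and 0.485. ABCA7 and ABCC10 stood at 1.96 and 1.67 times that mean. Without this library 19 members were called, 14 as lower and 5 as higher, and all 16 calls made with it were among them. Over all tested genes 80.7% were called without it, so the members' higher count is near that background too.

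Of the lipid exporters in subfamily A, 2 fell and 3 did not pass. ABCA1, which loads cholesterol and phospholipid onto apolipoprotein A-I, was at 5.98, 5.81 and 2.36 FPKM in sensitive and 1.71, 2.11 and 1.65 FPKM in resistant libraries (log2 fold change -0.95, SE 0.289, limma adjusted p = 0.0233). That call is weak. It ended without sensitive replicate 1 or 2 (adjusted p = 0.0609 and 0.0759), without resistant replicate 1, 2 or 3 (0.0732, 0.0518 and 0.0793) and with no filter (0.0545). Without sensitive replicate 3 the log2 fold change was -1.29 (adjusted p = 8.20e-06). ABCA2, a lipid transporter of late endosomes, fell from 10.9 ± 0.494 to 6.19 ± 0.364 FPKM with no overlap (log2 fold change -0.73, SE 0.110, limma adjusted p = 0.000937).

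ABCA3, known for filling lamellar bodies of the lung with phospholipid, was level between groups within its spread, at 6.30 ± 1.02 and 6.71 ± 0.398 FPKM (log2 fold change 0.09, SE 0.143, limma adjusted p = 0.606). Its sign turned under quantile normalization and without sensitive replicate 3. ABCA7, a phospholipid transporter also studied in Alzheimer's disease, was at 5.23, 4.87 and 9.91 FPKM against 4.51, 4.60 and 4.33 FPKM and did not pass (log2 fold change -0.43, limma adjusted p = 0.16). ABCA5, at 0.870 ± 0.577 and 1.10 ± 0.227 FPKM, did not pass either (log2 fold change 0.21, limma adjusted p = 0.439). All 10 tested apolipoprotein and sterol handling genes around these exporters were called, 7 as lower and 3 as higher, with a median log2 fold change of -2.08. Of all tested genes 67.7% were called, 32.5% as lower and 35.2% as higher, with a median of 0.08. APOA1, the acceptor for ABCA1, fell from 206 ± 23.2 to 0.922 ± 0.647 FPKM (log2 fold change -6.79), and APOE, APOA2 and APOC1 fell as well (-6.70, -6.28 and -5.61). Among resistant libraries APOA1 reached 1 FPKM in replicate 2 alone and APOC1 in replicate 1 alone, so both needed sensitive libraries to pass the filter.

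A further 20 members stayed under the filter, the highest value among them being 1.23 FPKM for ABCB9. Of these, 12 had a mean under 0.1 FPKM in both groups. They include both potassium channel subunits ABCC8 and ABCC9, the HDL-related exporter ABCG1 and the bile exporters ABCB4 and ABCG8. ABCA10 and ABCA12, a skin lipid transporter, were picked out with their values known. ABCA12 was at no more than 0.0266 FPKM in sensitive and between 0.534 and 0.703 FPKM in resistant libraries (log2 fold change 0.65 with no filter, limma adjusted p = 0.0002). ABCG4 was at 0.628, 0.566 and 0.233 FPKM against 0.304, 0.330 and 0.145 FPKM, with overlap. In the fit with no filter 22 of the 43 members were called, against 44.6% of all genes in it. Among the 20 members under the filter 7 were called. The 44.6% is no like background for these, since it includes genes that passed the filter. Of the 7, 5 were lower (ABCA4, ABCA8, ABCB1, ABCB9 and ABCD2) and 2 higher (ABCA10 and ABCA12). ABCD2 was near 0 in both groups, at no more than 0.0313 FPKM (log2 fold change -0.033).

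Superfamily members that carry other symbols were compared beside these rows. TAP1 and TAP2, which together pump peptides toward HLA class I, did not pass. TAP1 was at 9.50, 10.3 and 13.2 FPKM in sensitive and 14.8, 14.5 and 12.1 FPKM in resistant libraries (log2 fold change 0.31, limma adjusted p = 0.118), and TAP2 at 11.6 and 9.37 FPKM on average (-0.28, adjusted p = 0.176). CFTR, the chloride channel of the superfamily, was at no more than 0.0831 FPKM in every library.

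Regulators and partners of the transporters were taken from lists, read here as counts beside the 67.7% of all tested genes that were called. That background divides into 35.2% higher and 32.5% lower. Of 16 tested nuclear receptors and related regulators, 10 were lower, 3 higher and 3 did not pass. HNF4A, a liver transcription factor, fell from 29.7 ± 6.59 to 0.0655 ± 0.0315 FPKM, and NR2F2 fell too (log2 fold change -2.22). SREBF1, a regulator of lipid synthesis, rose by 2.14. The bile acid receptor NR1H4 and the xenobiotic receptors NR1I2 and NR1I3 were at no more than 0.327 FPKM in each library.

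Apical scaffold genes were called in 7 of 8 cases, 5 lower and 2 higher. PDZK1 and SLC9A3R1, adaptors that hold transporters at the apical membrane, fell (log2 fold changes -4.37 and -3.64), as did RAB11A of recycling endosomes (-1.75), while MYO5B rose by 2.20. Radixin (RDX), which anchors ABCC2 in hepatocytes and was picked out here, was at 43.2, 32.2 and 17.5 FPKM in sensitive and 16.2, 19.9 and 18.3 FPKM in resistant libraries, with overlap (limma adjusted p = 0.0956). Among 5 tested uptake and bile acid carriers 4 were lower and 1 higher, and for SLCO2B1, SLC51B and SLCO4A1 the filter fixed the direction, since they passed it in 1 group alone. The same holds for HNF4A, PDZK1, GGT1 and KRT7. SLCO4A1 rose from 0.806 ± 0.0920 to 122 ± 16.6 FPKM (log2 fold change 6.08), while SLC51B, SLCO2B1 and the flippase ATP8B1 fell (-3.89, -2.06 and -1.80). Of 8 tested genes around glutathione, the co-substrate of several ABCC pumps, 5 were lower and 3 higher. GSTP1, GGT1 and GSR fell (-2.67, -2.42 and -2.35), and SLC7A11, the cystine carrier, rose by 2.00.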

How the data were processed

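Each library came as a table of gene symbols and values. The authors deposited these values as normalized expression, read here as FPKM from how they behave, since no header names the unit (RPKM cannot be told from it). Per the submitters' processing notes, cutadapt and HISAT2 were used. Tool versions, the counting program, genome build, annotation and strand handling: not given in the sources used here. No pair of libraries had an identical nonzero value.

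Members and gene lists were chosen with earlier results of these data known. A gene was tested if 3 or more libraries reached 1 FPKM. The test was limma-trend (limma 3.58.1 in R 4.3.3) on log2(FPKM + 1), with group as the only term and all 6 libraries in 1 fit (4 residual and 2.75 prior degrees of freedom), with Benjamini-Hochberg adjustment over all tested genes. The fit was tested on simulated data. Libraries were left out with the tested genes kept. Depth was read from the spacing of low values of 167 genes with 1 transcript in GENCODE release 29. A value of 0 gets no fold.

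Members with a mean of at least 1 FPKM in a group are named, as are up to 4 called genes of each partner list by size of change. Values of 2 tested members and some partner genes are not reported here, though all enter the counts and sums. All 43 members matched RefSeq, and 33 had a promoter entry. Protein sequences were not used. Python 3.11.15 with pandas 2.3.3, numpy 2.4.6 and matplotlib 3.10.9 served for tables and plots. Alternatives were quantile normalization, a geometric mean scaling, a pseudocount of 0.1, no filter or a stricter one (mean FPKM of 5 or more), limma without the trend or robust, a replicate block, a test against a 1.5-fold change and each library left out.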

Additional observations from a re-analysis of the deposited data

How the results depend on the processing

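With a pseudocount of 0.1, without the trend and with robust limma-trend, 11 members were lower and 5 higher, the same 16 as in the report. Over the 6 left-out libraries the call count ranged from 14 to 19, as the share of all genes called ranged from 57.1% to 80.7%. Members lower ranged from 1 to 2 in subfamily A, 0 to 2 in B, 3 to 5 in C and 0 to 1 in E. Subfamily B had 2 members lower under quantile normalization and with no filter, and 1 under scaling to the geometric mean sample, where E also had 1. With no filter subfamily A had 2 higher. A mean of at least 5 FPKM left 17 members tested and 12 called, and 4973 of 7396 genes called, with 1 higher and 2 lower in C and 1 lower in A, because fewer genes were tested. Against a 1.5-fold change 4357 genes passed and 10 members, 2 of them higher. There B and D had 0 higher, C had 1 higher and A had 0 lower. The cause of the other changes was not tested. ABCA3 turned to -0.022 under quantile normalization. Over the left-out libraries ABCA3 ranged from -0.029 to 0.17 and ABCA5 from -0.041 to 0.42, each negative without sensitive replicate 3. None of these values passed. The log2 ratios of summed FPKM depended on the top member. Without it they went from -0.50 to -0.34 in A, -0.78 to -0.21 in B, -1.23 to -0.024 in C, -2.65 to -0.66 in D, -1.05 to -0.60 in F and -4.41 to -0.88 in G.

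Replicate numbers were shared between groups. Deviations of same-numbered libraries from their group means had r of -0.422, 0.072 and -0.228 for numbers 1, 2 and 3. These r run over genes and cannot decide whether equal numbers mark a shared culture or day. The labels do not say that they do. With the replicate block 17 members were called, the added one being in subfamily B, where 1 was then lower, and 7193 genes overall.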

Other observations

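Several members sit next to each other in the genome. ABCC1 and ABCC6 are neighbouring protein-coding genes in the RefSeq table. ABCC1 was at 13.4 ± 2.38 and 10.6 ± 0.322 FPKM in sensitive and resistant cells, while ABCC6 went from 4.24 ± 1.04 to 0.0767 ± 0.0305 FPKM. In the run of ABCA8, ABCA9, ABCA6, ABCA10 and ABCA5, all of subfamily A, no level was above 1.42 FPKM. ABCA8 was at 0.506, 0.424 and 0.255 FPKM in sensitive libraries and at 0.00411 FPKM or listed at 0 in resistant ones (log2 fold change -0.47 with no filter, limma adjusted p = 0.00258). ABCA10, 3 genes along, was at 0.00793 FPKM or listed at 0 in sensitive libraries and at 0.466, 0.926 and 0.625 FPKM in resistant ones (0.73 with no filter, adjusted p = 0.00216). Same-strand exons of ABCA10 and ABCA5 overlap by 318 bases, and ABCA5 itself did not pass. ABCB1 and ABCB4 are neighbours as well, with ABCB4 near 0 in every library.

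Among symbols outside the membership rule, ABCF1-DT, named for divergent transcription beside ABCF1, was at 0.279, 0.0459 and 0.665 FPKM in sensitive and 0.0941, 0.234 and 0.140 FPKM in resistant libraries. These overlap, unlike ABCF1 itself.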
